A study of Mus musculus with 9 samples.

Results

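The variable (V) segments of the T cell receptor (TCR) alpha and beta chains were followed through stimulation of CD4+ T cells and its modification by TRAIL, a member of the TNF family. A segment was included when its gene symbol began with Trav or Trbv and its mean level in the medium libraries was at least 1 TPM (a level corrected for transcript length and scaled to the same total in every library). This gave 138 segments, 115 of the 130 alpha rows and 23 of the 35 beta rows, among the 55487 genes of the table. The members were thus chosen by their measured medium values, and comparisons with medium are described below without a test. RNA was sequenced from splenic CD4+ T cells, isolated with a commercial kit, of wild-type C57BL/6 (Trail-r+/+) mice, described in the study's methods as female and 6 to 7 weeks old. Each of the 3 groups had 3 libraries: cells in medium alone, cells stimulated for 24 h by Abs to CD3, at 3 µg/ml, plus Abs to CD28, at 2 µg/ml, and cells given the same Abs together with TRAIL (10 µg/ml). All 3 groups carried the intact TRAIL receptor, the time in culture of the medium group is not given in the sources used here, and the labels do not say whether the replicates came from separate animals, so that p-values measure the spread between these libraries only.

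In alpha beta T cells an alpha chain is assembled from a V and a J segment and a beta chain from a V, a D and a J segment. The joined exon is spliced to the exons of a constant gene, Trac for alpha and Trbc1 or Trbc2 for beta. A V segment is transcribed at a high level from its own promoter only after rearrangement brings it near the enhancer of the locus, so its RNA in a population reflects both how many cells carry it and how strongly those cells transcribe the receptor. Engagement of the TCR by antibodies to CD3 is known to lower the receptor at the cell surface. In bulk RNA, fewer cells using a segment and less receptor RNA per cell cannot be told apart.

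The alpha members lay on mouse chromosome 14 between chr14:52427928 and 53876752 (GRCm38), all 115 on the plus strand, and the beta members on chromosome 6 between 40891229 and 41558452, 22 on the plus strand. Trbv31, the segment downstream of the constant genes, was the 1 beta member on the minus strand. By the GENCODE M21 annotation 108 alpha and 22 beta members were V genes with a coding sequence, and 7 alpha members and Trbv24 were V pseudogenes. Close to the inclusion limit, the members Trav12-4, Trav9d-2 and Trav13d-3 had means of 1.05, 1.10 and 1.28 TPM in medium, and the excluded Trav18, Trav23 and Trav4d-2 had means of 0.679, 0.450 and 0.449 TPM. The beta chain had a wider gap, with Trbv21, Trbv24 and Trbv23 included at 2.08, 12 and 14.1 TPM and Trbv22, Trbv12-3 and Trbv10 excluded at 0.925, 0.510 and 0.134 TPM. The 12 excluded beta rows were all annotated as pseudogenes, as were 13 of the 15 excluded alpha rows.

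The sequences show where a V segment meets its J or D partner. In the 5 beta segments with the highest level in medium, the last 60 coding bases (GENCODE M21 transcripts, GRCm38) hold the last in-frame cysteine codon, printed in capitals, which opens the junction that is completed by joining to D and J. These segments lie at chr6:41121396-41121832 (Trbv13-2), chr6:41048290-41048828 (Trbv3), chr6:41141188-41141658 (Trbv15), chr6:41151740-41152230 (Trbv16) and chr6:41188273-41188977 (Trbv20), on the plus strand:
Trbv13-2: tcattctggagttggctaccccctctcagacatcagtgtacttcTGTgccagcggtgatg
Trbv3: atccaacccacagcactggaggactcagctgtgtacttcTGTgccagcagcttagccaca
Trbv15: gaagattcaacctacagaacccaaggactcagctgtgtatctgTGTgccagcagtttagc
Trbv16: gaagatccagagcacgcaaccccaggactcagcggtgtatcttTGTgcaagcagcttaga
Trbv20: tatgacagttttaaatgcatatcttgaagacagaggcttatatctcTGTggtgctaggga

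Sequence also sets how far single segments can be read. The alpha locus of the C57BL/6 genome contains duplicated blocks of V segments, whose copies carry the letters d or n in their names. Of the 115 alpha members, 88 had another member with at least 97% identity of the coding sequence over at least 90% of the longer one, and 44 formed 22 pairs without a mismatch over the aligned bases, of which 16 also had equal annotated coding length. No beta member had such a copy. The closest beta pair was Trbv13-2 and Trbv13-3 (chr6:41130147-41130585), with 90.6% identity, that is 32 differing bases over 340. The last 300 coding bases of each are shown, with the 25 differing bases they hold in capitals:
Trbv13-2: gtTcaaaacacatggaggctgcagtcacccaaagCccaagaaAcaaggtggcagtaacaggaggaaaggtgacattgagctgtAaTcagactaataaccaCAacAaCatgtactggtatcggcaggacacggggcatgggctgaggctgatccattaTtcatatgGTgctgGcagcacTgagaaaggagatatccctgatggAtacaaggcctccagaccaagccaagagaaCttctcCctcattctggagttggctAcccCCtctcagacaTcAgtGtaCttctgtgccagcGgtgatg
Trbv13-3: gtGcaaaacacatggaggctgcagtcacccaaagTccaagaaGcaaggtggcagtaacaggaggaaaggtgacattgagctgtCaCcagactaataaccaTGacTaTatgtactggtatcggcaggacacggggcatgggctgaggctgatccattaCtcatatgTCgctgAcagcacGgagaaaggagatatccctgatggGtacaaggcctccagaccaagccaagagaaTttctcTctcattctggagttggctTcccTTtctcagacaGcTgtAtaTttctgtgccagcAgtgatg
The alpha copies shown next (last 300 coding bases) include 1 sequence shared by both segments of each of 3 pairs that were at once abundant and uneven between libraries, with the last in-frame cysteine codon in capitals. The first-named segments lie at chr14:53390635-53391142 (Trav7-2), chr14:53166626-53167178 (Trav14n-1) and chr14:53302036-53302559 (Trav4n-4), on the plus strand:
Trav7-2 and Trav7d-2: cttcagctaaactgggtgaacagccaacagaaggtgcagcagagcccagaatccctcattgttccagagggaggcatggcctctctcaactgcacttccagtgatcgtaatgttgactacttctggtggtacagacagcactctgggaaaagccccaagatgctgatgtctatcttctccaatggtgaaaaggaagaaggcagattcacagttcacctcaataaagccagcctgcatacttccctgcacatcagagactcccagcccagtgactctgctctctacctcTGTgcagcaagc
Trav14n-1 and Trav14d-1: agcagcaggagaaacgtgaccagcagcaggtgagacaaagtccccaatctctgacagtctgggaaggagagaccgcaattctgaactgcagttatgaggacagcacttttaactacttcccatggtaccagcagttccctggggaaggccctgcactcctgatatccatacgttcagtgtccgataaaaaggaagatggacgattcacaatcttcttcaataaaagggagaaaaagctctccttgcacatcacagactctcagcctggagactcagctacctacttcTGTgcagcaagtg
Trav4n-4 and Trav4d-4: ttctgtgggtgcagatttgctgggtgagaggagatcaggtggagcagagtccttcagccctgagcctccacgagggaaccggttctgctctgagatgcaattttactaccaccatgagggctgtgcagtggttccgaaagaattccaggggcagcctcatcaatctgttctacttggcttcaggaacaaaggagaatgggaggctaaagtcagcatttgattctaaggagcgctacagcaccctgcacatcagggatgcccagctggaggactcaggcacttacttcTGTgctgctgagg
The last pair, Trav6-3 (chr14:53428711-53430377) and Trav6d-3 (chr14:52725299-52726919), differed by the single substitution A336T, in capitals, counted from 1 at the first coding base of Trav6-3. It is shown because these were the 2 alpha members that did not follow the others:
Trav6-3: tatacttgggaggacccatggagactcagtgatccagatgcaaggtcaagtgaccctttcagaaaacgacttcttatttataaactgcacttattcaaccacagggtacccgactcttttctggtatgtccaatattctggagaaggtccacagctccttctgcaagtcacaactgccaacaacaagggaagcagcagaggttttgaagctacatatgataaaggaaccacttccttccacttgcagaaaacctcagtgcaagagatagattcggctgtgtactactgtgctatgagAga
Trav6d-3: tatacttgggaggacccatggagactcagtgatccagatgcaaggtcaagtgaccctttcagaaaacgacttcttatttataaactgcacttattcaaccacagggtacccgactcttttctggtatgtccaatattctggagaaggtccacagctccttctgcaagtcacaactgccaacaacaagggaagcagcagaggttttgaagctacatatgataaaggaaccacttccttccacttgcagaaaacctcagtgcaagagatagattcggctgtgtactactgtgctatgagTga

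Taken as whole chains, V segment RNA was lowest in the stimulated cells and stood near the medium level when TRAIL was present. The 115 alpha members summed to 1615, 1637 and 1626 TPM in the medium libraries, to 883, 965 and 1007 TPM in the stimulated libraries and to 1624, 1585 and 1493 TPM in the libraries with TRAIL. The beta members summed to 2235, 2000 and 2133 TPM, 1264, 1148 and 1171 TPM, and 2193, 2230 and 2316 TPM, in the same order. Every stimulated library was below every other library in both chains, and the medium and TRAIL libraries overlapped. The mean sums of the stimulated group were 0.585 (alpha) and 0.563 (beta) of those in medium, and with TRAIL they were 1.65 and 1.88 times those of the stimulated group. Both chains together made up 0.375 ± 0.0107% of all TPM in medium, 0.215 ± 0.00328% after stimulation and 0.381 ± 0.000436% with TRAIL (SD, n = 3).

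The constant genes, to which the V exons are spliced, are given beside the V segments. Trac stood at 875, 957 and 958 TPM in medium, 864, 747 and 788 TPM in stimulated cells and 998, 959 and 911 TPM with TRAIL. Its mean difference between the TRAIL and stimulated groups, 0.26 ± 0.093 (log2, SE; limma, adjusted p = 0.0302), stayed below the 2-fold minimum used for a call. Trbc1 stood at 559, 389 and 495 TPM in medium, 529, 339 and 360 TPM in stimulated cells and 467, 484 and 484 TPM with TRAIL, and did not pass the test between the last 2 groups (log2 difference 0.25 ± 0.18, adjusted p = 0.228). Trbc2 likewise did not pass it (0.30 ± 0.13, adjusted p = 0.0740), with 1057, 736 and 777 TPM in stimulated cells and 1034, 1054 and 1028 TPM with TRAIL. Stimulated replicate 1 was the highest of its group for both genes. Leaving out 1 library gave differences of 0.13 to 0.45 for Trbc1 and 0.20 to 0.46 for Trbc2. The highest of each was without stimulated replicate 1 (adjusted p = 0.0149 and 0.00191) and the lowest without stimulated replicate 2. Per unit of constant gene, summed alpha V RNA was 1.85, 1.71 and 1.70 times Trac in medium, 1.02, 1.29 and 1.28 times in stimulated cells and 1.63, 1.65 and 1.64 times with TRAIL. Summed beta V RNA was 1.40, 1.51 and 1.53 times the sum of Trbc1 and Trbc2 in medium, 0.797, 1.07 and 1.03 times in stimulated cells and 1.46, 1.45 and 1.53 times with TRAIL. In both chains the 3 stimulated ratios lay below all 6 others, and stimulated replicate 1 had the lowest. The rows of the joining segments were also lowest in stimulated cells, but with TRAIL their sums stayed below all medium libraries. The 60 Traj rows summed to a mean of 714, 341 and 566 TPM, and 14 Trbj rows to 1739, 1195 and 1543 TPM, in medium, stimulated cells and cells with TRAIL.

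**Figure D1:**
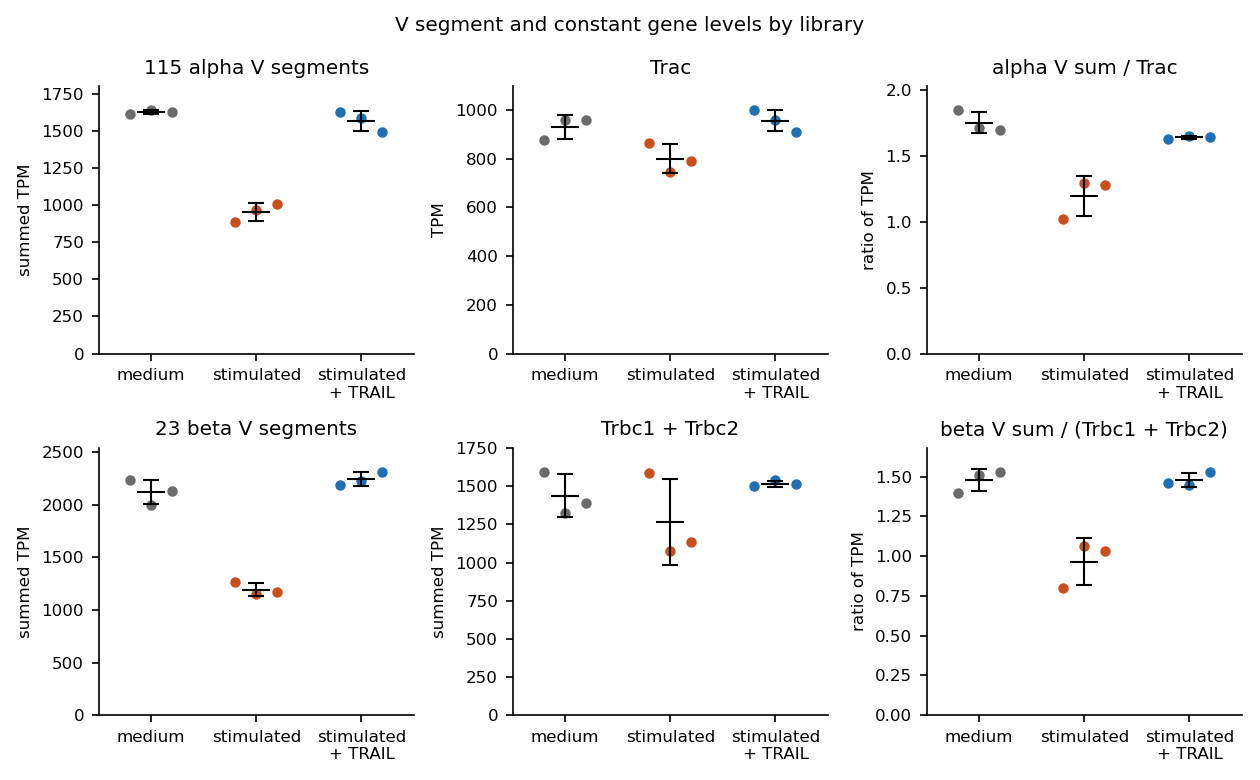
Levels in each library (points, replicates 1 to 3 from left to right) with the mean and SD (bars, n = 3) for summed V segments, constant genes and their ratio, the alpha chain above and the beta chain below; vertical axes are TPM or a ratio of TPM and start at 0. The stimulated libraries lie below all others for the V sums and the ratios (alpha ratio 1.02 to 1.29 against 1.63 or more), whereas Trbc1 plus Trbc2 overlap between groups.

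Of the other TCR chains, Cd3g, which encodes the CD3 gamma subunit, moved like the V segments. Its levels were 655, 545 and 646 TPM in medium, 308, 297 and 290 TPM after stimulation and 584, 592 and 610 TPM with TRAIL (TRAIL against stimulated, log2 0.99 ± 0.093 by limma, adjusted p = 5.95e-06). This value, just under the fold minimum, passed it without stimulated replicate 1 (1.02) or TRAIL replicate 1 (1.01) and with median-of-ratios scaling (1.09) or quantile normalization (1.07). Cd4, the coreceptor, had means of 384 ± 44.9 TPM in medium, 220 ± 44.0 TPM after stimulation and 384 ± 46.7 TPM with TRAIL (SD, n = 3; log2 0.81 ± 0.16 by limma, adjusted p = 0.00119). Cd3d (log2 0.34 ± 0.13, adjusted p = 0.0397), Cd3e (-0.32 ± 0.14, adjusted p = 0.0612) and Cd247, the zeta chain (0.07 ± 0.092, adjusted p = 0.511), differed less. None of the 9 tested genes of the list of constant and CD3 chains reached both limits of a call by limma, whereas 4 were higher and 1 lower at an unadjusted p under 0.05, where 35.1% of all genes were higher and 34.9% lower, and their median log2 difference was 0.26. Trdc, the delta constant gene, stood at 10.1, 7.13 and 7.90 TPM (means of medium, stimulated and TRAIL), and Ptcra, the pre-TCR alpha chain of thymocytes, was below the filter.

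In the comparison of stimulated cells with and without TRAIL the fold change uses no value that chose the members, whereas the SE and p also draw on the medium libraries, since all 9 were fitted together. With the 6 libraries of these groups fitted alone the numbers called, given next, were the same. A gene was called when limma gave an adjusted p under 0.05, over the 15536 genes that reached 1 TPM in 3 or more libraries, and a log2 fold change of at least 1 on the log2(TPM + 1) scale, which understates changes of low genes. Of the alpha members 113 passed the filter, and of the beta members all 23. Most could pass it on their medium values alone, so their number is no result. With TRAIL, 16 of 113 alpha members were called higher (14.2%) and none lower, where 16.6% of all genes were called higher and 14.3% lower. Among beta members 9 of 23 were called higher (39.1%) and none lower, and no member of either chain was lower even at an unadjusted p under 0.05. The alpha count rested on the scale, with 30 members (26.5%) called higher at a pseudocount of 0.1, 3 (2.65%) at a pseudocount of 5 and 25 (22.1%) with median-of-ratios scaling, so nothing is read from its distance to the background. The direction was shared by nearly all members. Of them, 111 of 113 alpha and 23 of 23 beta members had a log2 fold change above 0, against 50.4% of all genes. By adjusted p alone 79 alpha members (69.9%) and 22 beta members (95.7%) were higher and none lower, against 33.5% higher and 33.5% lower of all genes. The 3 TRAIL libraries lay above all 3 stimulated libraries in 86 alpha and 22 beta members and below them in none, against 35.5% and 34.9% of all genes.

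The median log2 fold change was 0.63 for alpha (interquartile range 0.44 to 0.86, whole range -0.26 to 1.5) and 0.88 for beta (0.60 to 1.09, whole range 0.11 to 1.48), against 0.01 for all genes tested, whose interquartile range was -0.61 to 0.67. Stimulated against medium cells, the same members had a median of -0.68 (alpha, 111 of 113 below 0) and -0.90 (beta, 22 of 23 below 0), beside -0.15 for all genes, of which 43.7% lay above 0. The cells with TRAIL against medium had medians of -0.06 (alpha) and 0.11 (beta) beside -0.18 for all genes. The alpha median turned to 0.11 and 0.13 with median-of-ratios scaling and quantile normalization, and the beta median rose to 0.30 and 0.25. These comparisons share libraries and the last 2 involve the values that chose the members, so they are given side by side as a description.

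**Figure D2:**
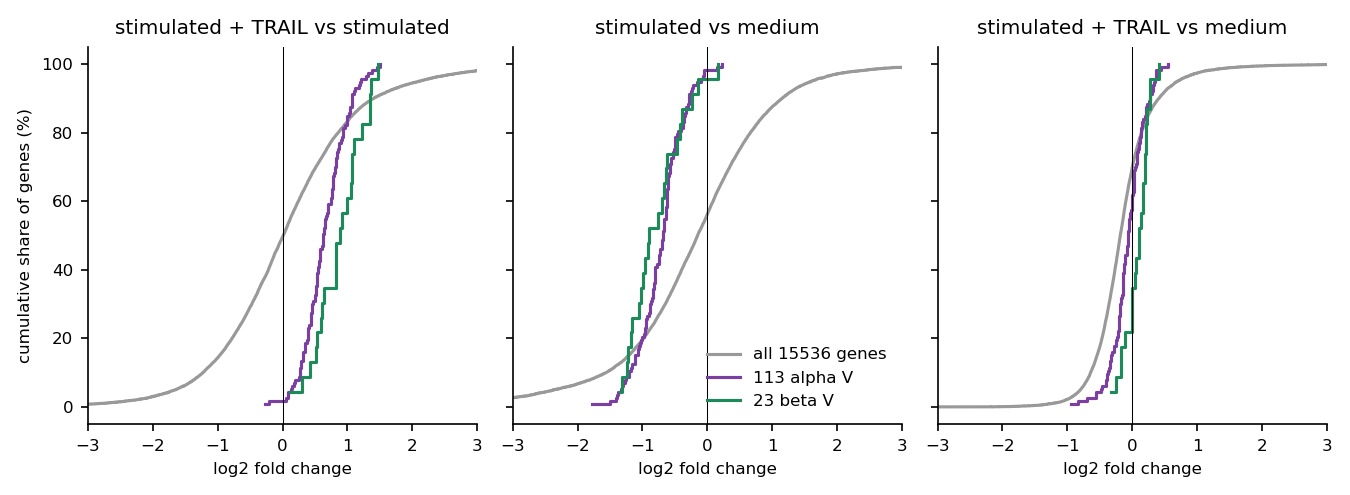
Cumulative share of genes (vertical axis, %) against log2 fold change (horizontal axis, shown from -3 to 3) for 113 alpha members, 23 beta members and all 15536 genes tested, in 3 comparisons. Both V curves are steep and lie to the right of 0 for TRAIL against stimulated (medians 0.63 and 0.88), to the left for stimulated against medium (-0.68 and -0.90) and near 0 for TRAIL against medium.

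Among the beta segments, Trbv13-2 was the most abundant in every group. Its levels were 230, 253 and 256 TPM in medium, 137, 123 and 132 TPM after stimulation and 253, 241 and 244 TPM with TRAIL (log2 0.91 ± 0.085, adjusted p = 5.64e-06, just under the fold minimum). Trbv3 came next, at 224, 188 and 207 TPM, 131, 125 and 131 TPM, and 224, 229 and 229 TPM (log2 0.82 ± 0.087, adjusted p = 1.47e-05). For both segments the stimulated libraries lay below all others. Trbv15 rose most with TRAIL, from 75.0, 72.5 and 81.0 TPM to 204, 205 and 232 TPM (log2 1.48 ± 0.094, adjusted p = 3.37e-07), and its 3 TRAIL libraries were also above its medium libraries of 169, 148 and 162 TPM. Trbv26 went from 45.2, 40.4 and 37.0 TPM to 105, 100 and 114 TPM (log2 1.36 ± 0.14, adjusted p = 9.76e-06). Trbv17 rose from 25.0, 22.9 and 23.1 TPM to 63.1, 59.7 and 62.7 TPM (log2 1.35 ± 0.087, adjusted p = 3.68e-07), against 64.2, 58.1 and 63.2 TPM in medium. The groups with and without TRAIL did not overlap in any of these 5 segments, of which Trbv15, Trbv26 and Trbv17 were picked for their rise.

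The other abundant beta segments moved in the same direction. Trbv20 went from 65.7, 57.0 and 53.2 TPM to 130, 143 and 140 TPM with TRAIL (log2 1.22 ± 0.10, limma adjusted p = 2.85e-06), having stood at 149, 128 and 137 TPM in medium. Trbv16 went from 68.0, 66.8 and 60.2 TPM to 130, 148 and 135 TPM (log2 1.07 ± 0.11, adjusted p = 1.18e-05). Trbv12-2 had 50.2, 51.0 and 51.1 TPM in stimulated cells, the narrowest spread of the abundant segments, and 111, 110 and 104 TPM with TRAIL (log2 1.08 ± 0.077, adjusted p = 7.67e-07). Its neighbour Trbv12-1, with 88.2% identity, was called as well, at 16.8, 19.4 and 17.9 TPM against 50.9, 48.8 and 42.2 TPM (log2 1.34 ± 0.17, adjusted p = 4.64e-05), although its medium libraries spread over 55.0, 33.1 and 39.9 TPM. Trbv13-1 and Trbv13-3 rose by 0.83 and 0.88 on the log2 scale (adjusted p = 1.74e-05 and 6.49e-05), close to the 0.91 of their relative Trbv13-2, and none of the 3 reached the fold minimum. With quantile normalization Trbv13-2 (1.08) and Trbv13-3 (1.03) did, and with median-of-ratios scaling Trbv13-2 (1.01). Trbv2 had the smallest step of the 10 most abundant, from 61.1, 56.6 and 51.0 TPM to 81.6, 80.1 and 80.4 TPM (log2 0.52 ± 0.095, adjusted p = 0.000708).

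The segments at the ends of the beta locus moved less than most. Trbv1, the most upstream member, named here after its values were seen, had 105, 83.4 and 88.2 TPM in medium, 87.9, 76.1 and 70.4 TPM after stimulation and 94.5, 93.5 and 99.5 TPM with TRAIL (log2 0.30 ± 0.12, limma adjusted p = 0.0418). Its medium and stimulated libraries overlapped. Trbv31 had 85.3, 82.6 and 88.8 TPM in medium, 78.0, 55.3 and 62.7 TPM after stimulation and 95.4, 99.3 and 102 TPM with TRAIL (log2 0.61 ± 0.12, adjusted p = 0.00119). At low level, Trbv21 was the 1 beta member that did not pass the test in any direction, with 2.05, 2.18 and 3.07 TPM against 3.34, 2.34 and 2.42 TPM (log2 0.11 ± 0.19, adjusted p = 0.627). Trbv23 (12.8, 14.0 and 11.3 TPM against 15.8, 17.8 and 18.1 TPM) had a log2 difference of 0.42 ± 0.11 (adjusted p = 0.0081). The pseudogene Trbv24 was called, at 7.12, 3.83 and 7.36 TPM against 11, 13.9 and 17.4 TPM (log2 1.11 ± 0.24, adjusted p = 0.00191), a call that was lost with a pseudocount of 5 (0.78), without stimulated replicate 2 (0.85) and without TRAIL replicate 3 (0.95). Trbv30, whose TRAIL libraries of 14.3, 9.69 and 13.3 TPM were among the most variable (coefficient of variation 19.4%), still lay above its stimulated libraries of 5.41, 5.75 and 5.92 TPM (log2 0.99 ± 0.14, adjusted p = 0.000146). It passed the fold minimum without TRAIL replicate 2 (1.14) or stimulated replicate 3 (1.01), with a pseudocount of 0.1 (1.09) and with median-of-ratios scaling (1.08). Across the 23 beta members the fold change had no steady relation to position along the locus (Pearson r = 0.06, Spearman rho = 0.18) and across the 113 tested alpha members likewise (0.10 and 0.08). These coefficients are across segments, which share libraries and are not independent replicates.

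**Figure D3:**
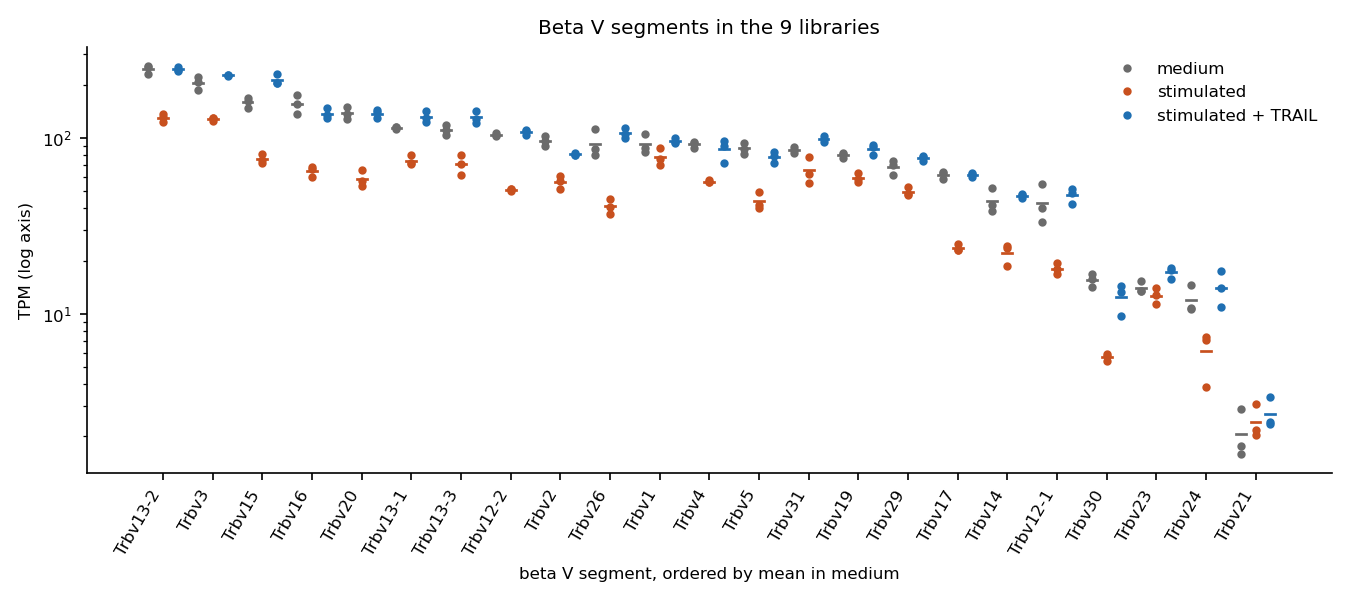
TPM (vertical log axis) of each of the 23 beta V segments in the 9 libraries (points) with the group mean (short line), ordered by the mean in medium. The stimulated libraries lie below those with TRAIL for every segment but Trbv21, and the distance is small for Trbv1 (70.4 to 87.9 TPM against 93.5 to 99.5 TPM) and large for Trbv15 (72.5 to 81.0 TPM against 204 to 232 TPM).

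The alpha chain was spread over many more segments, mostly at lower levels than those of beta. The highest member mean in medium was 48.8 TPM and the median 11.4 TPM, against 246 and 92.2 TPM for beta. Near-identical copies, which only alpha members have, bear on this contrast and on the ranking that follows. Summed over such copies, the highest alpha set (Trav14d-3-dv8, Trav14n-3 and Trav14-3) had a mean of 99.8 TPM in medium. The 10 most abundant alpha members in medium were Trav14n-1, Trav7d-2, Trav7-2, Trav7-4, Trav14-2, Trav14n-3, Trav14d-3-dv8, Trav14-1, Trav14d-1 and Trav13-1, 9 of them from the Trav14 and Trav7 families. The 9 members of the Trav14 family summed to 292 TPM in medium, 141 TPM after stimulation and 260 TPM with TRAIL (means), the 14 of Trav7 to 269, 157 and 259 TPM, and the 15 of Trav6 to 219, 152 and 235 TPM. As shares of all alpha V RNA, Trav14 held 18.0 ± 1.43%, 14.7 ± 0.276% and 16.6 ± 0.633%, Trav7 stayed at 16.5% in each group, and Trav6 held 13.5 ± 0.511%, 15.9 ± 0.285% and 15.0 ± 0.358% (SD, n = 3). The 7 members of Trav15, a family whose segments can also be used by the delta chain, had the smallest remainder of the larger families after stimulation, 13.8 TPM against 37.3 TPM in medium and 32.2 TPM with TRAIL, and 4 of the 7 were called higher with TRAIL, where 16.6% of all genes were. With a pseudocount of 5 none of these low segments was called, and 2 of the 4, Trav15d-2-dv6d-2 and Trav15n-2, belong to 1 set of near-identical copies. Its summed TPM had means of 5.40 in stimulated cells and 11.4 with TRAIL, a difference of 0.97 on the log2(TPM + 1) scale.

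The largest called rises among alpha members were in families Trav6, Trav4 and Trav9. Trav6n-5 went from 4.19, 5.54 and 5.53 TPM in stimulated cells to 17.0, 14.7 and 16.6 TPM with TRAIL (log2 1.5 ± 0.13, limma adjusted p = 2.65e-06) and its near-copy Trav6-5 from 8.57, 10.8 and 9.69 TPM to 27.2, 25.4 and 27.4 TPM (log2 1.38 ± 0.11, adjusted p = 2.30e-06). Their medium libraries stood at 11.4, 13.1 and 12 TPM and at 26.1, 27.2 and 22.7 TPM. Trav4-2 went from 3.28, 2.06 and 2.45 TPM to 9.31, 9.88 and 7.40 TPM (log2 1.46 ± 0.16, adjusted p = 1.57e-05). Trav9n-3 rose from 3.47, 4.49 and 3.93 TPM to 13.1, 11.4 and 9.93 TPM (log2 1.32 ± 0.14, adjusted p = 1.27e-05), and Trav9n-4 from 4.26, 5.13 and 5.48 TPM to 15.6, 12.7 and 12.1 TPM (log2 1.28 ± 0.14, adjusted p = 1.41e-05). No TRAIL library overlapped a stimulated library in these 5 segments, which were picked for their large rise, so this adds nothing to the calls. Trav9n-3 and Trav9n-4 each have a copy without mismatch, Trav9d-3 and the shorter annotated Trav9d-4, so the size of their own rise depends on how reads were split. With TRAIL the means were 11.5 TPM for Trav9n-3 and 6.62 TPM for Trav9d-3, against 9.05 TPM each in medium. The set of 8 near-identical Trav9 segments that holds them summed to 33.8, 37.0 and 40.3 TPM in stimulated cells and 86.4, 81.7 and 71.5 TPM with TRAIL (log2 1.09). With a pseudocount of 5 the calls of Trav4-2, Trav9n-3 and Trav9n-4 were lost (0.87, 0.87 and 0.89).

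The abundant alpha segments that had no copy free of mismatches moved by between 0.35 and 1.19 on the log2 scale. Trav14-1 went from 14.7, 16.7 and 14.6 TPM to 35.1, 31.1 and 33.8 TPM with TRAIL (log2 1.07 ± 0.097, limma adjusted p = 4.59e-06; 0.91 with a pseudocount of 5, under the fold minimum), and Trav14d-3-dv8 rose from 11.8, 12.5 and 15.0 TPM to 34.7, 34.5 and 25.2 TPM (log2 1.19 ± 0.14, adjusted p = 3.13e-05). Trav14d-3-dv8 belongs to a set of near-identical segments with Trav14n-3 and Trav14-3, which summed to 52.1, 59.0 and 59.4 TPM and to 99.8, 99.7 and 100.1 TPM (log2 0.81). In TRAIL replicate 3, where it was lowest, Trav14n-3 stood at 47.0 TPM against 39.4 and 37.9 TPM in the other TRAIL libraries. Trav7-4 stood at 22.5, 26.0 and 25.4 TPM against 40.8, 39.1 and 35.7 TPM (log2 0.63 ± 0.10, adjusted p = 0.000298). Trav14-2 and Trav14n-3 had log2 differences of 0.75 and 0.69 (adjusted p = 0.000229 and 0.00057). Trav13-1, at 21.0, 17.3 and 23.6 TPM against 31.9, 28.8 and 19.9 TPM, overlapped between the groups and did not pass the test (log2 0.35 ± 0.17, adjusted p = 0.0922; 0.22 to 0.54 with 1 library left out). Without TRAIL replicate 3, the lowest of its group, Trav13-1 did pass it (0.54, limma adjusted p = 0.00674).

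The 2 alpha members with a log2 difference below 0 were Trav6-3 and Trav6d-3, named after their values were seen, whose sequences differ by the single base shown above. Trav6-3 had 13.9, 12.1 and 15.0 TPM in medium, 14.6, 13.8 and 20.7 TPM after stimulation and 12.5, 12.4 and 15.1 TPM with TRAIL (log2 -0.26 ± 0.16, limma adjusted p = 0.167; -0.09 without stimulated replicate 3 and -0.37 without stimulated replicate 2). Trav6d-3 had 7.21, 7.16 and 9.11 TPM, 9.39, 9.48 and 7.45 TPM, and 6.53, 7.76 and 7.99 TPM (log2 -0.21 ± 0.14, adjusted p = 0.208). Neither differed between the groups beyond the spread of its libraries, and they were the 2 alpha members whose mean was not lower after stimulation than in medium. Summed, the pair stood at 24.0, 23.3 and 28.1 TPM in stimulated cells and 19.0, 20.2 and 23.1 TPM with TRAIL. Among the 60 sets of near-identical alpha copies and single segments it was the 1 set whose TRAIL libraries all lay below the stimulated ones. In 48 sets they all lay above, in 11 they overlapped, and the median log2 difference over the sets was 0.68. Of all genes taken singly, the TRAIL libraries all lay above in 35.5% and below in 34.9%.

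Within pairs of copies without mismatch the split between the copies could shift from library to library, as in the most variable pairs described here. This was not general over the 22 pairs. The sum varied less than both copies in 16 of 66 cases (22 pairs in 3 groups). The median coefficient of variation was 13.1% for single copies and 11.5% for sums. Trav7d-2 and Trav7-2 had nearly equal levels in 8 libraries, for example 27.2 and 26.4 TPM in stimulated replicate 1, but 85.0 and 13.4 TPM in TRAIL replicate 1, where the sum of 98.4 TPM was between the 88.9 and 99.1 TPM of the other TRAIL libraries. Taken singly, Trav7d-2 differed between the groups (log2 0.99 ± 0.21, limma adjusted p = 0.00167; 1.17 without TRAIL replicate 2) and Trav7-2 did not pass the test (0.15 ± 0.38, adjusted p = 0.74), with a difference that turned negative (-0.10 and -0.17) without TRAIL replicate 2 or 3. Without TRAIL replicate 1, the library with the uneven split, the difference was 0.72 for Trav7d-2 and 0.73 for Trav7-2. Trav14n-1 had 20.5, 14.5 and 16.9 TPM in stimulated cells and 31.7, 31.8 and 48.0 TPM with TRAIL (log2 1.05 ± 0.25, adjusted p = 0.00379), a call lost with a pseudocount of 5 (0.91) and without stimulated replicate 2 (0.93) or TRAIL replicate 3 (0.85). Its copy Trav14d-1 had 5.29, 14.6 and 16.9 TPM and 31.7, 32.6 and 12.7 TPM (log2 1.03 ± 0.49, adjusted p = 0.0843). This difference was 0.56 without stimulated replicate 1 and was called without TRAIL replicate 3 (1.46, adjusted p = 0.0274). The sum of the 2 gave 25.8, 29.1 and 33.8 TPM against 63.5, 64.4 and 60.7 TPM, with coefficients of variation of 13.6% and 3.09%. Trav4n-4 read 31.1, 14.8 and 16.2 TPM and Trav4d-4 read 7.31, 11.9 and 13.2 TPM with TRAIL, and here the sum still varied by 19.5%. The authors' counting is not stated to resolve such copies, so that the level of 1 copy is uncertain, and the sum does not depend on the split within the pair. Over the 22 pairs the median fold between the copies in medium was 1.12, the largest was 2.23, and 5 pairs differed by at least 1.5-fold.

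**Figure D4:**
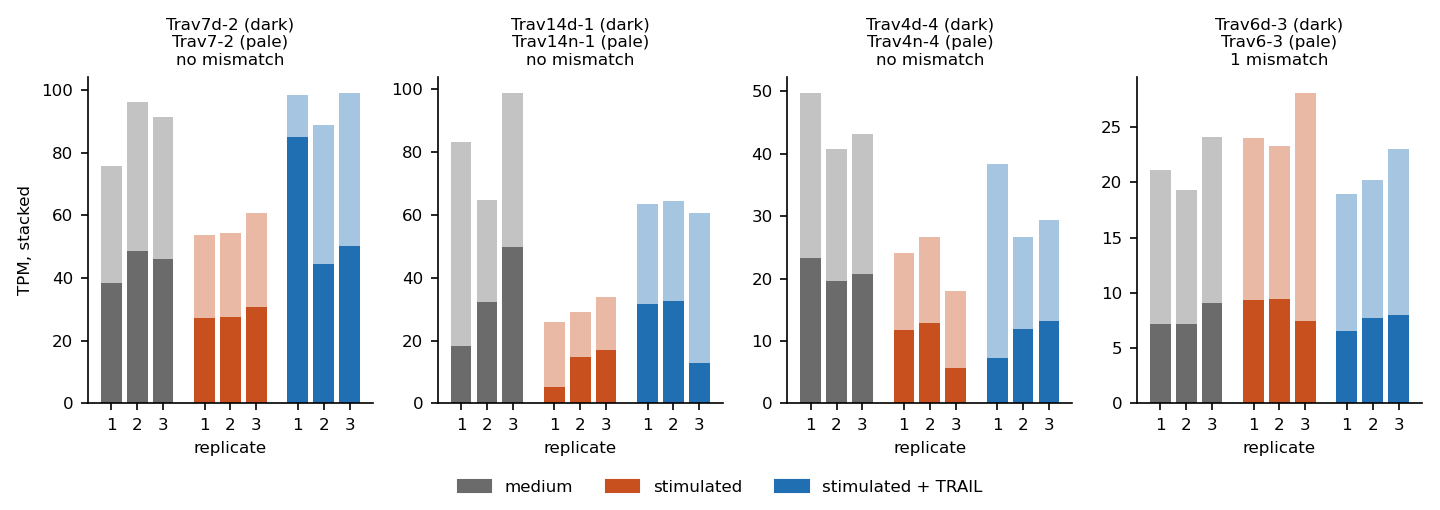
Stacked TPM (vertical axes from 0, scaled for each pair) of 4 alpha copy pairs in the 9 libraries; dark bars are the first-named and pale bars the second-named copy, colours mark the group. The split between copies without mismatch shifts in single libraries (85.0 and 13.4 TPM of Trav7d-2 and Trav7-2 in TRAIL replicate 1) while the stacked height is lower in every stimulated library than with TRAIL in the first and second pair, overlaps in the pair of Trav4d-4 and Trav4n-4, and is higher in the pair of Trav6d-3 and Trav6-3.

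Segments known from invariant T cells were at low levels. Trav1, used by the invariant receptor of mucosal-associated invariant T (MAIT) cells, had 2.77, 2.94 and 3.92 TPM in stimulated cells and 5.04, 5.15 and 3.46 TPM with TRAIL (log2 0.39 ± 0.16, limma adjusted p = 0.0517). Trav11, of the invariant natural killer T (iNKT) receptor, had 3.50, 4.12 and 5.37 TPM and 6.22, 5.86 and 5.99 TPM (log2 0.41 ± 0.19, adjusted p = 0.0744), and its copy Trav11d 3.82, 4.25 and 5.48 TPM and 6.01, 5.93 and 5.91 TPM (log2 0.34 ± 0.29, adjusted p = 0.314). None passed the test singly, although the TRAIL and stimulated libraries did not overlap for Trav11 or Trav11d. The sum of Trav11, Trav11d and Trav11n was 8.69, 8.57 and 12.1 TPM in stimulated cells and 14.5, 13.3 and 13.1 TPM with TRAIL (log2 0.46, no overlap), within the interquartile range of the alpha members. A V segment alone does not tell an invariant from an ordinary receptor. In medium Trav11d stood at 5.42, 5.30 and 13.9 TPM, where its copy Trav11 had 5.25, 5.31 and 3.12 TPM.

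To ask whether segments changed relative to each other, each library was divided by the summed TPM of the chain and fitted again, so that a segment's value follows its share of the chain. With the fold minimum no member of either chain was called by limma, where 9.24% (alpha divisor) and 8.03% (beta divisor) of all genes were called higher and 34.8% and 41.7% lower. By adjusted p alone, 18 alpha members had a higher and 14 a lower share with TRAIL (15.9% and 12.4%), and 5 and 8 beta members (21.7% and 34.8%). At an unadjusted p under 0.05 the counts were 19 and 16 for alpha and 5 and 8 for beta. In the same fits 18.7% (alpha divisor) and 14.8% (beta divisor) of all genes were higher and 59.6% and 63.0% lower. Every gene is there read against V RNA. Because the divisor is the members' own sum, members and other genes are not alike in these fits, and nothing is read from either comparison. Trbv15 gained most among beta segments, holding 6.38 ± 0.495% of beta V RNA in stimulated cells and 9.51 ± 0.456% with TRAIL (log2 change of share 0.57 ± 0.097, adjusted p = 0.000294), with 7.53 ± 0.0977% in medium. Trbv20 went from 4.90 ± 0.333% to 6.14 ± 0.262% (adjusted p = 0.0108), Trbv26 from 3.42 ± 0.228% to 4.73 ± 0.217% (adjusted p = 0.00476) and Trbv17 from 1.98 ± 0.0139% to 2.75 ± 0.108% (adjusted p = 0.00107). In the other direction Trbv1 went from 6.53 ± 0.479% to 4.27 ± 0.0644% (log2 -0.61 ± 0.10, adjusted p = 0.000295), having held 4.34 ± 0.324% in medium, and Trbv2 from 4.71 ± 0.31% to 3.59 ± 0.125% (adjusted p = 0.00513). The most abundant segment, Trbv13-2, kept its share at 10.9 ± 0.302% and 11 ± 0.508% (log2 0.00 ± 0.10, adjusted p = 0.971).

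Among alpha members the share of Trav6-3 went from 1.71 ± 0.314% to 0.853 ± 0.135% with TRAIL (log2 -0.94 ± 0.15, limma adjusted p = 0.000249) and that of Trav6d-3 from 0.928 ± 0.168% to 0.476 ± 0.0676% (log2 -0.86 ± 0.16, adjusted p = 0.000583), beside 0.841% and 0.481% in medium. Trav6n-5 gained, from 0.532 ± 0.0519% to 1.03 ± 0.0911% (log2 0.87 ± 0.11, adjusted p = 4.24e-05), as did Trav6-5, from 1.02 ± 0.0866% to 1.70 ± 0.118% (adjusted p = 0.000131), so that members of 1 family moved both ways. The breadth of usage differed little: the effective number of segments (the exponential of the Shannon entropy of the shares) was 86.2, 89.3 and 87.0 for alpha in medium, 84.2, 85.2 and 83.6 after stimulation and 85.2, 87.1 and 85.1 with TRAIL, and for beta it lay between 18.2 and 18.6 in all 9 libraries. The stimulated alpha values all lay below those in medium. The alpha number counts copies without mismatch as separate segments, so it depends on the split of reads as well. The 5 beta segments most abundant in medium held 37.7, 38.6 and 39.0% of beta V RNA in stimulated cells and 42.9, 43.4 and 42.4% with TRAIL, groups that did not overlap, as against 42.4, 42.7 and 43.0% in medium. The rank order of the 23 beta segments was more alike between replicates (Spearman rho 0.951 to 0.997) and between medium and TRAIL libraries (0.944 to 0.975) than between medium and stimulated libraries (0.836 to 0.927), given as a description.

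**Figure D5:**
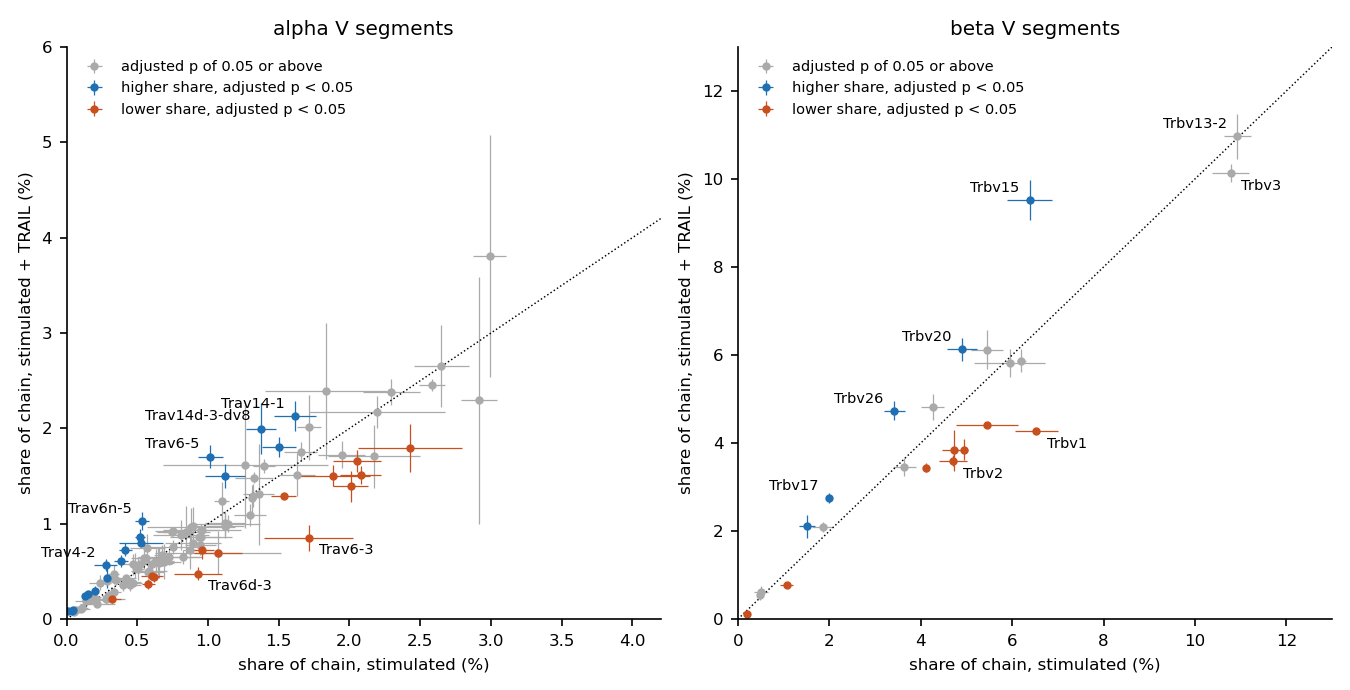
Share of the chain's V RNA in stimulated cells (horizontal axis, %) against that with TRAIL (vertical axis, %) for the 113 alpha and 23 beta segments tested, as means with SD (bars, n = 3); the dotted line marks equal shares and colours mark an adjusted p under 0.05 in the usage fit by limma. Trbv15 lies farthest above the line (6.38% against 9.51%), and Trbv1 and Trav6-3 lie below it.

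Transcripts of B, myeloid and erythroid cells were, like those of the V segments, lowest in the stimulated cells. The labelled cell type was borne out by its own markers, Cd4 and the CD3 chains, but the medium libraries also held B cell genes (10 listed, summed 6417 to 7097 TPM), myeloid genes (12, 2075 to 2326 TPM) and erythroid genes (7, 2137 to 2585 TPM). In stimulated libraries these sums were 748 to 825, 93.8 to 105 and 24.8 to 39.6 TPM, and with TRAIL 3171 to 3668, 1509 to 1737 and 619 to 669 TPM. With TRAIL all of them stayed below every medium library, whereas the V sums overlapped with medium. The erythroid gene Slc4a1 was listed at the lowest value of the table, 0.0001 TPM, in all 3 stimulated libraries. With TRAIL, 8 of 10 B cell genes, 12 of 12 myeloid genes and 7 of 7 erythroid genes were called higher and none lower (16.6% and 14.3% of all genes), with median log2 differences of 2.18, 4.37 and 4.0. Examples are Cd79a of the B cell receptor (log2 3.47), the complement gene C1qc (5.99) and the globin gene Hba-a2 (4.76). Markers of other lymphocytes did not share 1 direction. The 8 gamma-delta T cell genes summed to 173 to 184, 35.1 to 37.3 and 93.7 to 108 TPM (3 called higher). Blk, which B cells also express, made up much of these sums (111 to 121, 9.63 to 10.8 and 53.5 to 63.6 TPM, log2 2.44), while the delta constant gene Trdc had a log2 difference of 0.12 and did not pass the test. The calls of Trgc1 and Cd163l1 in that list were lost with a pseudocount of 5 (0.68 and 0.69), and that of Trgc1 also with quantile normalization (0.89) and without stimulated replicate 3 (0.95) or TRAIL replicate 3 (0.98). The 2 CD8 genes summed to 110 to 118, 94.2 to 105 and 46.9 to 49.4 TPM (1 lower, Cd8a), and the 8 NK cell genes to 269 to 357, 228 to 299 and 100 to 106 TPM (3 higher, 1 lower). The NK sum follows 1 gene, the granzyme Gzma (201 to 273 TPM in stimulated cells and 48.5 to 55.4 TPM with TRAIL, log2 -2.13). The list had a median of 0.83, and Ncr1, an NK cell receptor, rose (log2 1.37). With a pseudocount of 5 none of the 3 NK genes called higher reached the fold minimum (Ncr1 0.81, Klrb1c 0.64 and Klra8 0.87). Klrb1c also missed it with quantile normalization (0.91) and without stimulated replicate 2 (0.97). The 8 genes of iNKT and MAIT cells summed to 259 to 301, 153 to 166 and 160 to 185 TPM (3 higher, 1 lower; median log2 difference 0.62). In that sum the fall of Slamf1 (101 to 117 TPM against 30.6 to 33.9 TPM, log2 -1.76) stood beside the rise of Slamf6 (17.2 to 19.8 TPM against 88.3 to 112 TPM, log2 2.32). The other genes called higher there, Ncr1 and Klrb1c, are those already counted in the NK list, with calls lost with a pseudocount of 5. The 5 genes of regulatory T cells summed to 191 to 211, 1535 to 1780 and 290 to 324 TPM (1 higher, 2 lower). Il2ra and Tnfrsf18, which activated T cells also express, made most of the stimulated sum (log2 -5.16 and -2.99 with TRAIL). The defining factor Foxp3 had 18.7 to 29.3 TPM in stimulated cells and 22.2 to 27.9 TPM with TRAIL (log2 0.00, limma adjusted p = 0.994) and Ikzf2 rose (log2 1.68). The part of these cells in the V segment values was not tested.

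Of the 16 genes listed for TCR gene transcription and recombination, 14 were tested, of which 6 were called higher and 3 lower with TRAIL (16.6% and 14.3% of all genes), with a median log2 difference of 0.67 (stimulated against medium, -0.75). Myb, a transcription factor of lymphocyte development, went from 18.9, 23.0 and 23.9 TPM to 106, 110 and 107 TPM (log2 2.25 ± 0.10, limma adjusted p = 3.07e-08). Dntt, the enzyme that adds bases at V(D)J junctions, had 0.629, 0.641 and 0.396 TPM against 4.58, 4.90 and 6.54 TPM (log2 2.02 ± 0.18, adjusted p = 3.61e-06; 0.89 and not called with a pseudocount of 5). Lef1, an HMG box factor that binds the alpha enhancer, was called higher (log2 1.19 ± 0.15, adjusted p = 5.65e-05), whereas the chromatin organiser Satb1 (-1.43 ± 0.17, adjusted p = 3.24e-05) and the T cell factor Gata3 (-1.19 ± 0.15, adjusted p = 5.02e-05) were called lower. In all 5 genes the TRAIL and stimulated libraries did not overlap. The genes were picked as called genes with the largest changes, so this adds nothing to the calls.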

How the data were processed

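Per the study's methods, the authors sequenced mRNA libraries from CD4+ T cells as paired reads, used Trimmomatic for trimming and HISAT2 for alignment (GRCm38), and normalised feature counts by DESeq2. The authors' processing notes, as submitted, list Trimmomatic 0.36, HISAT2 2.1.0, SAMtools 1.2, StringTie 2.1.2 and DESeq2, and the build GRCh38, whereas the loci in the table match mouse GRCm38. The authors deposited 1 table of TPM for 55487 genes. The program that made the TPM is not given in the sources used here. TPM keeps no depth, so counting error is unknown, and how reads shared by copies were assigned is not given.

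The members and gene lists were chosen with earlier results of these data known. Members were Trav and Trbv rows whose medium mean reached 1 TPM. Groups came from the labels. All 9 libraries were fitted with limma 3.58.1 (R 4.3.3; lmFit, eBayes with a trend) on log2(TPM + 1), for 15536 genes that reached 1 TPM in 3 or more libraries, without a replicate block. Genes were called at an adjusted p (Benjamini-Hochberg) under 0.05 together with a change of 1 or more on the log2 scale. The ± beside a log2 value is its SE. DESeq2 was not used, since TPM are not counts. For usage, each library was divided by the summed TPM of the chain's members and multiplied by the mean of those sums. Tested on simulated data of 15536 genes for TRAIL against stimulated cells, 91.5 to 97% of 200 genes changed by 1.5 (log2) were recovered, with at most 3 false calls. Coding sequences of GENCODE M21 (GRCm38) were aligned with Biopython 1.88, and pandas 2.3.3 and matplotlib 3.10.9 (Python 3.11.15) served for tables and plots.

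Named genes were, per chain, the 10 members highest in medium, 3 members and 3 other rows around the inclusion limit, up to 5 called members with the largest rise and fall, up to 5 members called for usage and the 3 most variable members of at least 10 TPM. Added were Trav1, Trav11, Trav11d, Trbv31, all constant and CD3 genes, and called genes of the other lists. Trbv1, Trav6-3, Trav6d-3 and partner copies (such as Trav4d-4) were named after their values were seen. Alternatives were other pseudocounts, filters, scalings and divisors, a replicate block, 2 groups only, no variance trend, no fold minimum and leaving out each library.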

Additional observations from a re-analysis of the deposited data

How the results depend on the processing

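The median log2 fold change of TRAIL against stimulated cells stayed above 0 in both chains under every alternative run. The number of calls changed with the setting, for a reason that was not tested. Alpha members called higher numbered 16, against 30 with a pseudocount of 0.1, 3 with a pseudocount of 5, 25 with median-of-ratios scaling, 79 without a fold minimum and 14 to 21 when 1 library was left out. Beta members called higher numbered 9, against 10 and 7 with those pseudocounts, 11 with median-of-ratios scaling, 22 without a fold minimum and 8 to 10 when 1 library was left out, and no member was called lower in any of these. The median log2 fold change, 0.63 for alpha, was 0.73 and 0.40 with pseudocounts of 0.1 and 5, 0.72 with median-of-ratios scaling, 0.52 with quantile normalization and 0.59 to 0.66 with 1 library left out. For beta, 0.88, it was 0.79 with a pseudocount of 5, 0.97 and 0.99 with those scalings and 0.80 to 0.92 with 1 library left out. Stimulated against medium, the alpha median of -0.68 became -0.78 and -0.47 (pseudocounts of 0.1 and 5), -0.60 (median-of-ratios) and -0.40 (quantile), with -0.72 to -0.65 over left-out libraries. The beta median of -0.90 became -0.72 (pseudocount of 5) and -0.81 (median-of-ratios), with -0.95 to -0.76. Both scalings moved the median of all genes in TRAIL against medium, by 0.17 and 0.14, and quantile normalization that of stimulated against medium by 0.17. With them the alpha median of TRAIL against medium turned from -0.06 to 0.11 (median-of-ratios) and 0.13 (quantile), and the beta median of 0.11 became 0.30 and 0.25, while leaving out 1 library gave -0.09 to -0.03 and 0.06 to 0.19. In the usage fit, where none was called, 3 alpha members were called higher with a pseudocount of 0.1 and 0 to 1 in each direction with 1 library left out, and without a fold minimum 18 and 14 alpha and 5 and 8 beta members were called. Median-of-ratios scaling gave log2 ratios of summed TPM of 0.82 (alpha) and 1.01 (beta) for TRAIL to stimulated and -0.68 and -0.73 for stimulated to medium, and leaving out 1 library 0.67 to 0.76, 0.88 to 0.95, -0.81 to -0.72 and -0.87 to -0.79 in the same order. The difference in the effective number of alpha segments, TRAIL minus stimulated, was 0.345 over members of at least 5 TPM in medium and 0.798 to 1.87 with 1 library left out, and that of beta segments -0.122 to 0.00302. The V to constant gene ratios, whose alternatives were chosen after seeing the data, gave log2 differences of 0.35 to 0.51 (alpha) and 0.50 to 0.70 (beta) for TRAIL to stimulated and -0.61 to -0.45 and -0.70 to -0.50 for stimulated to medium with 1 library left out. Of 83 named genes, the difference of Trav7-2 turned to -0.10 and -0.17 without TRAIL replicate 2 or 3, that of Trbv21 to -0.15 with quantile normalization and -0.00946 without TRAIL replicate 1 (at most 0.24 with 1 library left out), and that of Cd247 to -0.0129 without stimulated replicate 1, none of them called. The cause of these shifts was not tested. With the replicate number as a block the counts were 16 and 9, as without it. Same-numbered libraries deviated with correlations of -0.306 to 0.295 over 9 pairs, so the numbers were not taken to pair the samples. TPM without depth, 3 libraries per group and near-identical copies limit what single segments can show.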
